A study of Mus musculus with 59 samples.

Results

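This comparison set KLS cells in which Pu.1 had been deleted (Pu.1-KO) against wild-type (WT) KLS cells, with all genes of the table described. It took 4 of the 59 samples of the series, 2 Pu.1-KO and 2 WT libraries, and of the 51810 genes in their table the 23459 with a mean normalized count of 10 or more were tested. KLS cells are the bone marrow fraction that lacks lineage markers and carries c-Kit and Sca-1, a mixture of stem cells and early progenitors. The Pu.1-KO mice were Pu.1 F/F Cre +/- and the WT mice Pu.1 +/+ Cre +/-, so both groups were C57BL/6 and carried Mx1Cre, and cells were taken at 3 weeks post induction (w.p.i.). The interferon-inducible Mx1 promoter drives this Cre, which was switched on in both groups by injected pI:pC and is active in many tissues besides blood cells. The labels give neither the age of the mice nor the Daxx genotype of this line, and no source used here gives which exons of Spi1 were floxed or how many cells escaped deletion. The column names carry animal numbers and no replicate number of the labels, so the libraries are called Pu.1-KO a and b and WT a and b.

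Pu.1, encoded by Spi1, is an ETS-family transcription factor that binds purine-rich DNA around a GGAA core. It is needed for monocytes, macrophages, granulocytes and B cells, acts in a dose-dependent way in stem cells, and opposes Gata1 and Gata2 in the choice between myeloid and erythroid fates. Among its textbook targets are receptors for myeloid growth factors (Csf1r, Csf2ra, Csf3r), integrins (Itgam, Itgb2), Fc receptors and parts of the NADPH oxidase. Granule proteins and other abundant proteins of neutrophils are made in waves. Mpo, Elane and Prtn3 come early, and Ltf, Camp, Ngp, Lcn2 and the S100a8–S100a9 pair late.

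The libraries differed in their background as well as in their genotype. Their depth ran from 13041698 to 19105576 gene reads, and the deepest library of each group was library b. Olfactory receptor (Olfr) genes, which blood cells are not known to use, took 0.0954% and 0.352% of the summed normalized count in Pu.1-KO a and b, against 0.0299% and 0.0703% in WT a and b. Per kb of gene span, introns included, this was 1.78 and 4.77 normalized counts in Pu.1-KO against 0.736 and 1.39 in WT. Of 1405 Olfr genes, 1109 and 1205 were above 0 in Pu.1-KO against 646 and 906 in WT. Pu.1-KO b thus stood apart, and both Pu.1-KO libraries lay above both WT libraries.

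If the same density of reads fell on every gene span, background would make up 14.9% of the summed value in Pu.1-KO a, 54.8% in Pu.1-KO b, 4.65% in WT a and 10.9% in WT b. The granulocyte–monocyte progenitor (GMP) libraries of the same animal numbers ran from 0.356 to 0.993 Olfr counts per kb. KLS libraries of another line, used further on, ran from 0.0823 to 0.187. The values come from 2 samples a group, so the p-values below measure the spread between these samples only. What part the uneven background had in any difference between the groups was not tested, and the values are given beside each result that moved with it.

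**Figure D1:**
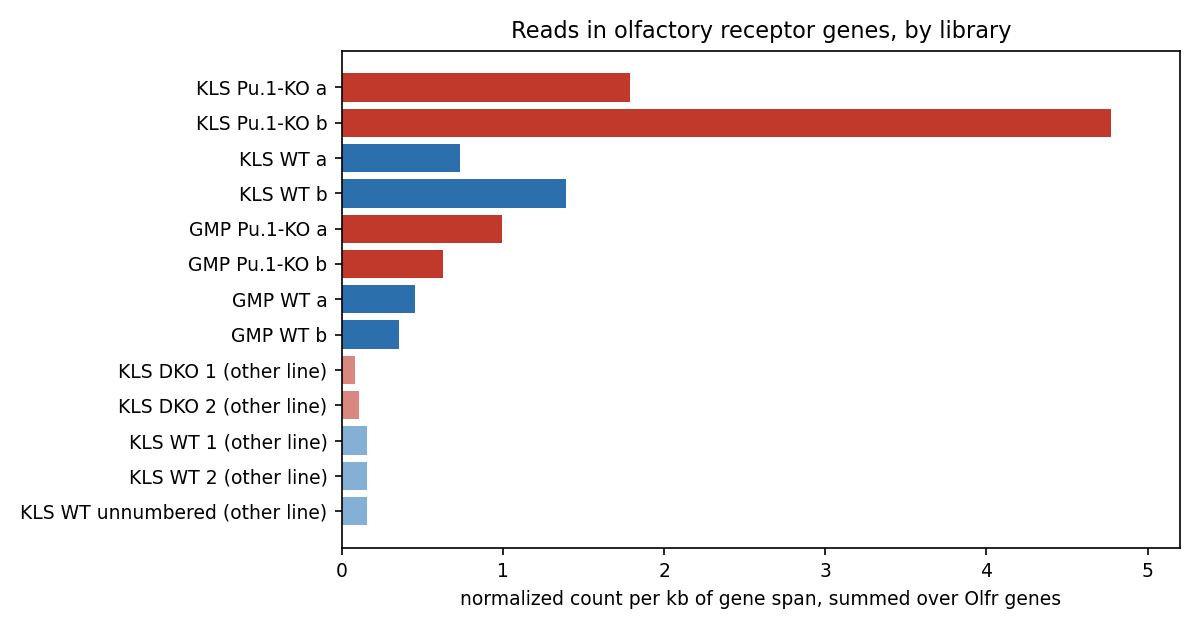
Normalized counts in Olfr genes per kb of gene span, by library (bars), in KLS cells and GMPs of the Pu.1 line (red Pu.1-KO, blue WT) and in KLS cells of the other line (pale red DKO, pale blue WT). The longest bar is Pu.1-KO b at 4.77, and the DKO and WT bars of the other line, whose Daxx-KO libraries are not drawn, reach at most 0.155.

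The deleted gene was not called lower. Spi1 (chromosome 2, 91082390–91115756, plus strand, GRCm38) had 2920 and 1307 normalized counts in Pu.1-KO a and b and 2764 and 2080 in WT a and b, so the groups overlapped (log2 fold change −0.30, SE 0.64, adjusted p = 0.75, limma). The labels of Pu.1-KO are therefore not borne out by the level of Spi1, and reads over a whole gene do not check a deletion of part of it. Daxx, the histone H3.3 chaperone studied in the rest of the series, had 478 and 295 in Pu.1-KO against 920 and 625 in WT (−1.01, SE 0.57, adjusted p = 0.23).

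The gene next to Spi1 rose. Mybpc3 (chromosome 2, 91118144–91136516), which encodes a myosin-binding protein of heart muscle and starts 2388 bases past the end of Spi1 on the same strand, had 4894 and 2292 normalized counts in Pu.1-KO against 108 and 91.1 in WT. Both Pu.1-KO libraries lay far above both WT libraries, and the log2 fold change was 5.06 (SE 0.57, adjusted p = 1.254e-14). None of the other genes tested within 150 kb of Spi1 was called. Psmc3, a proteasome subunit 16021 bases upstream, had 1995 and 1135 against 3486 and 2468 (adjusted p = 0.30). Madd, 21604 bases downstream, had 1981 and 1002 against 3394 and 2710 (adjusted p = 0.24). Whether the counting used strand is not given in the sources used here, and whether reads ran on from Spi1 into Mybpc3 was not tested.

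On the deposited scale 190 of 23459 genes, 0.81%, were called at an adjusted p under 0.05, 110 higher in Pu.1-KO (0.469%) and 80 lower (0.341%). The libraries of the groups did not overlap for 33.7% of the genes tested in the upward direction and for 31.9% in the downward direction. The calls upward and downward were unlike in their background. Of the 110 genes called higher, 83 had an expected background of at least 50% of their summed value and 15 one under 10%, with a median of 85.4%. Of the 78 genes called lower with a known span, 75 were under 10%, and the median was 1.02%. The median span was 58.9 kb for genes called higher, 3.25 kb for genes called lower and 19.1 kb over all genes tested. With TMM over all genes 605 were called (2.58%), 446 higher (1.9%) and 159 lower (0.678%). Leaving out WT a left 9 genes higher and 5 lower, and leaving out Pu.1-KO a gave 3312 and 4650.

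**Figure D2:**
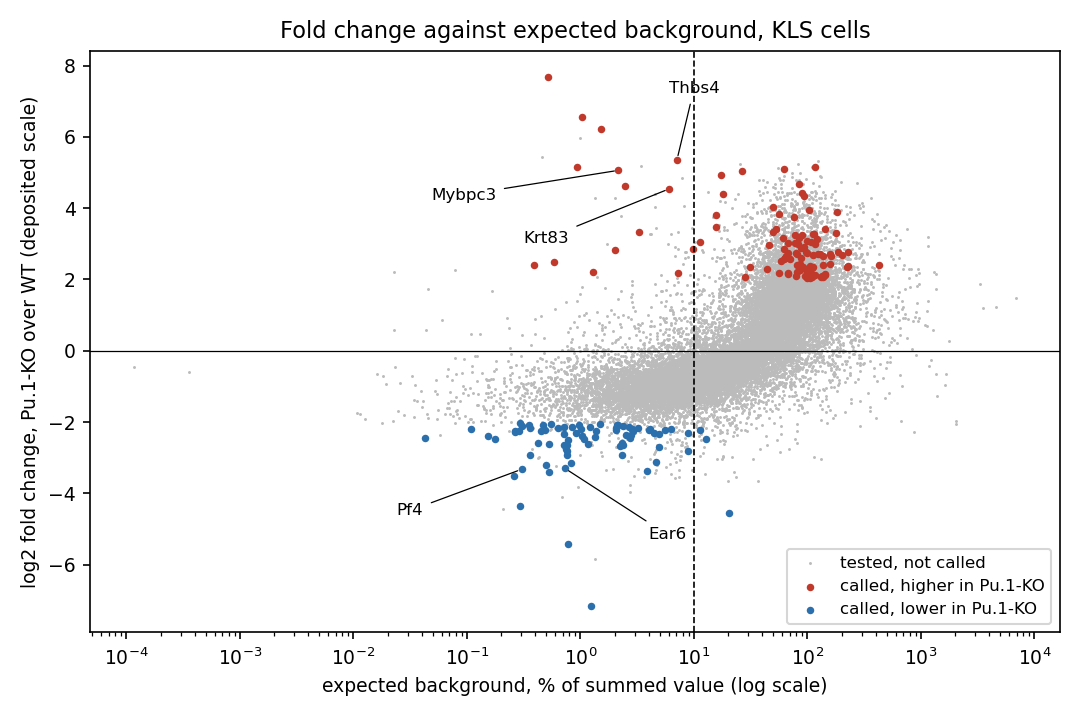
Log2 fold change of each tested gene on the deposited scale (vertical) against its expected background in % of the summed value (horizontal, log axis; genes with no known span are left out), with called genes in red (higher) and blue (lower). The dashed line marks 10%. Fold changes rise with background across all genes, and 83 of the 110 red points lie at 50% or more.

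To read genes in which background made up little of the value, genes were kept where expected background was under 10% of their summed value, 6232 of those tested, and were rescaled by TMM over these genes. On the deposited scale their median log2 fold change was −0.97, and after rescaling −0.0035. The values of Pu.1-KO a and b were divided by 0.916 and 0.472 and those of WT a and b by 1.49 and 1.12. This choice was made after the values had been seen. The sum runs over both groups, so a gene can pass through the group where it is high. Of the 264 genes called higher on this scale, 9 had an expected background of 10% or more in WT (Thbs4 at 76.0%, Krt83 at 42.4%, Igkv12-89 at 38.8%, Mybpc3 at 19.6%, and Mapk13, Gpr27, Sh2d2a and Ccno at 10.3% to 20.9% of the WT value, and Ighv14-3, listed at 0 in WT), so the difference itself let them into the set. In Pu.1-KO, 62 of the 264 and 54 of the 167 genes called lower reached that level, beside 3199 of all 6232. Where it had to be under 10% in each group, 2998 genes were left, of which 188 were called higher (175 of them among the 264) and 90 lower (87 of them among the 167). Below, "low-background" names the set of 6232 genes and its scale.

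Of the 6232 low-background genes, 431 (6.92%) were called, 264 higher (4.24%) and 167 lower (2.68%). With the expected background taken off each value first, 181 were higher (2.91%) and 44 lower (0.706%), in all 3.61% of the genes tested, and edgeR on the recovered reads called 244 and 135. On the deposited scale 9 and 26 of the same 6232 genes were called. All 264 and all 167 genes kept their sign when any single library was left out. Their choice by the difference in these same libraries largely fixed this in advance. The number of calls did not hold: without WT a it was 33 higher and 0 lower, without WT b 19 and 0 (limma; 555 and 662 genes in all had an unadjusted p under 0.05), and without Pu.1-KO a 599 and 733, each with the lone library assumed to vary like the other group. Of the 264 genes, 189 also had a positive log2 fold change on the deposited scale, and all 167 had a negative one.

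The genes that rose most on the low-background scale were of unlike kinds. Thbs4, a thrombospondin of the extracellular matrix, had 3568 and 1599 normalized counts in Pu.1-KO against 40.7 and 80.2 in WT, a log2 fold change of 5.36 (SE 0.58) on the deposited scale and 6.33 (SE 0.39) on the low-background scale. Krt83, a hair keratin, had 651 and 236 against 17.6 and 14.3 (low-background 5.49, SE 0.45). Orm1, an acute-phase plasma protein, had 584 and 269 against 71.8 and 20.3 (4.30, SE 0.48). In these genes, as in Mybpc3 (6.03, SE 0.20), every Pu.1-KO library lay above every WT library by several fold.

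Mapk13, a p38 kinase, had 572 and 293 in Pu.1-KO against 55.6 and 55.7 in WT (low-background log2 fold change 3.82, SE 0.33). Lrg1, a leucine-rich glycoprotein of neutrophil granules and plasma, had 774 and 499 against 175 and 102 (3.18, SE 0.27). Tinagl1, a matrix protein, had 568 and 476 against 125 and 104 (3.15, SE 0.31). Thbs1, another thrombospondin, was the least even of them, with 11627 and 5989 against 4622 and 486 (3.45, SE 0.69), so that WT a and WT b differed from each other more than Pu.1-KO b differed from WT a. These 4 genes, Thbs4, Krt83, Orm1, Mybpc3 and the unnamed transcript I830127L07Rik were called on both scales. The remaining 6 of the 15 low-background genes called higher on the deposited scale were immunoglobulin V segments, taken up below. Further rises called on the low-background scale alone were those of Olr1, a lectin-like scavenger receptor (1961 and 700 against 301 and 297; 2.94, SE 0.24), Ifitm6, an interferon-induced membrane protein (3.03, SE 0.44), Sh2d2a, a T-cell signalling adaptor (3.09, SE 0.32), Gpr27, an orphan receptor (3.57, SE 0.67), and Ccno, a cyclin of ciliated cells (3.61, SE 0.65). The calls of Thbs1 and Ccno were lost with background taken off (adjusted p = 0.060 and 0.052).

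**Figure D3:**
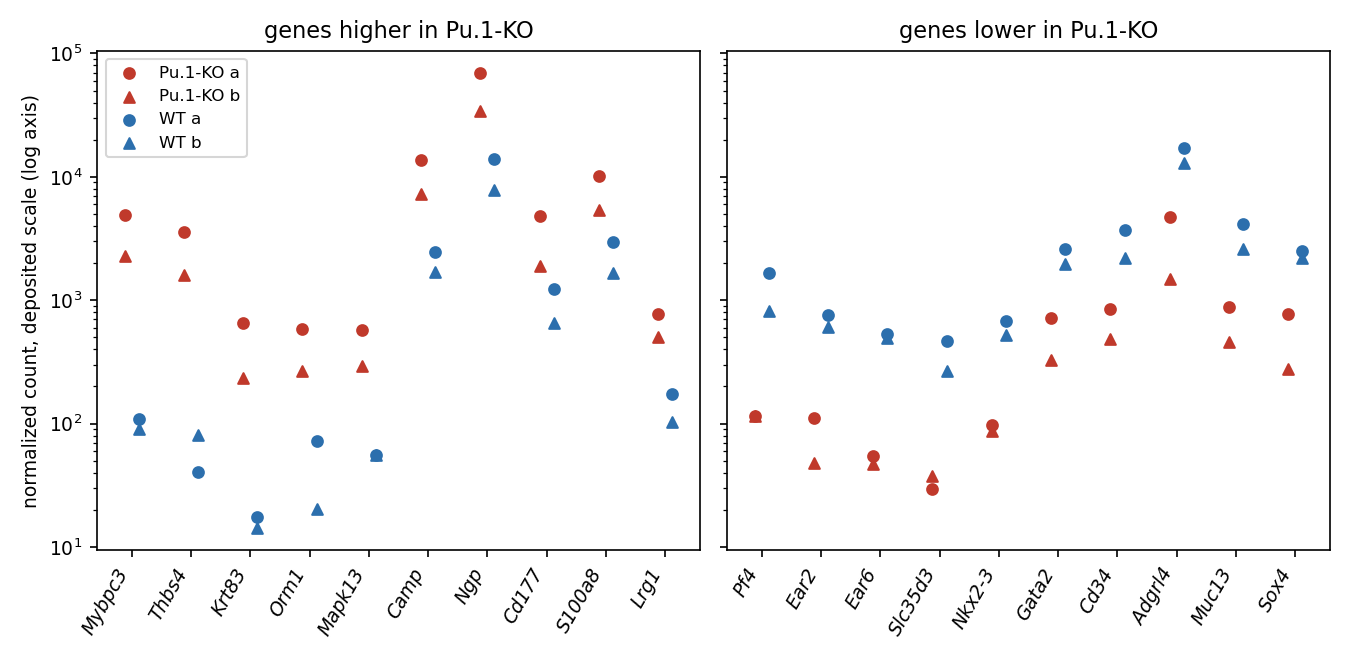
Normalized counts on the deposited scale (log axis) of 10 genes called higher and 10 called lower in Pu.1-KO on the low-background scale, by library (red Pu.1-KO, blue WT; circles library a, triangles library b). In every gene shown both red points lie on the same side of both blue points, with Mybpc3 at 4894 and 2292 against 108 and 91.1 and Pf4 at 116 and 116 against 1662 and 824.

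Late neutrophil genes were higher in Pu.1-KO. Of 15 genes on this list 13 had low background, of which 9 were called higher and 1 lower, with a median log2 fold change of 1.89, beside 4.24% and 2.68% of all low-background genes and their median of −0.0035. On the deposited scale the median was 0.86, with 0 called higher and 1 lower of 15, and with background taken off 9 and 1 were called. Camp, the cathelicidin antimicrobial peptide, had 13591 and 7236 in Pu.1-KO against 2457 and 1704 in WT (low-background 3.25, SE 0.17, adjusted p = 4.944e-05). Ngp, a granule protein related to it, had 68897 and 33912 against 13951 and 7833 (3.18, SE 0.30). Both genes were above both WT libraries in each Pu.1-KO library, on either scale.

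Cd177, a neutrophil surface glycoprotein, had 4857 and 1900 in Pu.1-KO against 1237 and 655 in WT (low-background 2.73, SE 0.22). S100a8, a calcium-binding alarmin, had 10137 and 5425 against 2940 and 1677 (2.71, SE 0.19). Its partner S100a9 had 19429 and 9608 against 9949 and 5688 (1.84, SE 0.23), so that its libraries overlapped on the deposited scale. Also called were Ly6g, a target of the Gr-1 antibody (3.02, SE 0.51), Wfdc21 (2.49, SE 0.25), Lcn2, which binds bacterial siderophores (1.89, SE 0.22), and Retnlg (1.77, SE 0.29). The list did not move as a whole. Ltf, which encodes lactoferrin, had 5006 and 878 against 10411 and 5164 (−0.83, SE 0.43, adjusted p = 0.28), and Chil3, a chitinase-like protein, fell, with 471 and 215 against 1965 and 1278 (−1.34, SE 0.19, adjusted p = 0.0045). Mmp8 and Mmp9, proteases of late granules, were not called (0.83 and 1.38, adjusted p = 0.32 and 0.054).

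In bulk libraries of a sorted gate, more cells of a type and more RNA per cell cannot be told apart. The gate excluded cells with Gr-1 and CD11b on their surface. Itgam, which encodes CD11b, had 1384 and 615 in Pu.1-KO against 3673 and 2331 in WT and was called lower on the low-background scale (−0.69, SE 0.17, adjusted p = 0.048), a call that was lost with background taken off (−0.89, adjusted p = 0.095). The summed normalized count of the late neutrophil list was 132501 and 63692 in Pu.1-KO against 48407 and 26599 in WT, and its part in the other changes was not tested.

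Promoters of the genes that moved were searched for GAGGAAGT, the core of the Pu.1 site, on either strand, from 250 bases before to 50 after each RefSeq start (GRCm38.p6). The motif lay in the promoters of 12 of the 189 low-background genes called higher that had a promoter in the table (6.35%) and of 4 of the 117 called lower (3.42%), beside 997 of 27025 genes overall (3.69%). Of promoters of this length, 1052 of 32851 (3.2%) held it. A match is a description of the letters and not a site of binding. The sequences below belong to 3 granulocyte genes that were higher and hold the motif, and to Pf4, which was lower and holds it. The last is that of Mybpc3, which was higher and has no match. Camp, a late neutrophil gene, and Thbs4 were also higher, have no match and are not shown. Capitals mark the motif, read as ACTTCCTC where it lies on the other strand.
S100a8 promoter, chr3:90668821-90669120, plus strand: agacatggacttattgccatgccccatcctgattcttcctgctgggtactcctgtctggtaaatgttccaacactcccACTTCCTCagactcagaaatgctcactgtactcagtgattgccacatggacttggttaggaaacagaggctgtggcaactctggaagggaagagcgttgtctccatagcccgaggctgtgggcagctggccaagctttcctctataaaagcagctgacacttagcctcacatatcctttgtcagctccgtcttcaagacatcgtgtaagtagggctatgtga
Elane promoter, chr10:79886062-79886361, plus strand: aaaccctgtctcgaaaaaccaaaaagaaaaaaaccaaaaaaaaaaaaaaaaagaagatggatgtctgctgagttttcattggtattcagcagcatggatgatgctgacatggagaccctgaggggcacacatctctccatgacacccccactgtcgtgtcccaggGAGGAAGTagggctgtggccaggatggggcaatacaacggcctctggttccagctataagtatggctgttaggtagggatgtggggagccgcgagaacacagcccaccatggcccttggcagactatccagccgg
Ly6g promoter, chr15:75155011-75155310, plus strand: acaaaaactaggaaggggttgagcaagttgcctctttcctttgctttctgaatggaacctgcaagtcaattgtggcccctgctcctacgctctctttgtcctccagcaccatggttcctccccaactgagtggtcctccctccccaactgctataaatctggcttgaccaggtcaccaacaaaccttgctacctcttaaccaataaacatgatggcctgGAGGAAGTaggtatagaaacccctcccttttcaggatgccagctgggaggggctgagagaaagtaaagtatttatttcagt
Pf4 promoter, chr5:90772185-90772484, plus strand: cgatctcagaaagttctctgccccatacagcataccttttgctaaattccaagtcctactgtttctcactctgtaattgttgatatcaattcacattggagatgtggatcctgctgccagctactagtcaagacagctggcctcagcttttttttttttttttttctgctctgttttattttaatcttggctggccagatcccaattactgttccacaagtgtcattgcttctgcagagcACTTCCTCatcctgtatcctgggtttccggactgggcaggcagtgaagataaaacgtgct
Mybpc3 promoter, chr2:91117894-91118193, plus strand: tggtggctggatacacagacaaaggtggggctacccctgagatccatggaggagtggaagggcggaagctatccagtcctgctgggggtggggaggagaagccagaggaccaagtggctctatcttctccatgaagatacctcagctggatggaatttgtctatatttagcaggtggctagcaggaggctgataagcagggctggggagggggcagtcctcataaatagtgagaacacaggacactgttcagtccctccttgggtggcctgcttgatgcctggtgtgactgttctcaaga
The first base of the motif was at −172 in S100a8, −85 in Elane, −31 in Ly6g and −10 in Pf4, counted from the start. Ly6g has a further annotated start, whose window overlaps this one.

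Early granulocytic genes were in part higher. All 15 members of this list had low background. On the low-background scale 6 were called higher and 0 lower, beside 4.24% and 2.68% of all low-background genes. The median log2 fold change of the list was 0.82, against −0.15 with 0 called on the deposited scale, where the sign was the opposite. With background taken off 7 were higher. Elane, neutrophil elastase, had 18080 and 6413 normalized counts in Pu.1-KO against 7994 and 6512 in WT, which overlap on the deposited scale. On the low-background scale Elane was higher (1.55, SE 0.24, adjusted p = 0.0066). Gstm1, a glutathione transferase of early neutrophil precursors, had 2330 and 779 against 754 and 560 (2.02, SE 0.22). Ap3s1, an adaptor subunit for vesicle transport (1.91, SE 0.22), and Nkg7, a membrane protein of cytotoxic granules (1.85, SE 0.20), were higher too.

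Mpo, myeloperoxidase, was not called, with 28206 and 11262 in Pu.1-KO against 22948 and 17151 in WT (low-background 0.82, SE 0.28, adjusted p = 0.12), but was called higher with background taken off (1.05, adjusted p = 0.039). Prtn3, proteinase 3 of the same early granules, had 1573 and 634 against 3307 and 2547 (−0.56, SE 0.18, adjusted p = 0.092), below WT in each library on the deposited scale. Of the regulators of this lineage, Cebpe, needed for late granules, had 759 and 474 against 225 and 234 (2.36, SE 0.25, adjusted p = 0.0011). Gfi1, a repressor needed for neutrophils, had 1285 and 341 against 571 and 417 and was called higher on the low-background scale alone (1.41, SE 0.30). Cebpd, another C/EBP factor, had 822 and 414 against 443 and 199 (1.94, SE 0.27). Cebpa, which acts earlier than these, had 580 and 127 against 1133 and 419 (−0.37, SE 0.43, adjusted p = 0.65) and was not called.

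The listed myeloid targets of Pu.1 did not fall together on the low-background scale. Of 26 with low background, 4 were called higher and 1 lower, beside 4.24% and 2.68% of all low-background genes. The median log2 fold change of the 26 was 0.13, while on the deposited scale it was −0.72 over 40. The 4 that rose were Fcer1g, the shared chain of Fc receptors (1634 and 947 against 839 and 458; 1.98, SE 0.20), Itgb2, the integrin β2 chain (5478 and 3161 against 2841 and 2195; 1.71, SE 0.16), Ncf4, a subunit of the NADPH oxidase (1.49, SE 0.19), and Itgal, the integrin αL chain, which was at −0.11 on the deposited scale (0.87, SE 0.18). The gene called lower was Itgam, described above, and with background taken off 4 were higher and 0 lower. Csf1r, the M-CSF receptor, had 597 and 443 in Pu.1-KO against 996 and 725 in WT (0.25, SE 0.22, adjusted p = 0.54). Csf2ra, a GM-CSF receptor chain, had 261 and 85.1 against 588 and 569 (−0.98, SE 0.30, adjusted p = 0.086). Csf3r, the G-CSF receptor, had 2344 and 885 against 3088 and 2008 (0.19, SE 0.19, adjusted p = 0.60). Lyz2, lysozyme, had 5172 and 915 against 5838 and 3885 (−0.16, SE 0.40, adjusted p = 0.86). Msr1, a macrophage scavenger receptor, was called higher on the deposited scale (139 and 265 against 16.3 and 32.9), but its expected background was 117% of its value.

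Genes of the stem and progenitor gate were present, and some were lower. Of 12 low-background members 4 were called lower and 0 higher, beside 2.68% and 4.24% of all low-background genes. The median log2 fold change of the 12 was −0.37, and with background taken off 2 were called lower, Cd34 and Adgrl4. Kit, the c-Kit of the sort, had 7411 and 2636 in Pu.1-KO against 11642 and 9582 in WT (low-background −0.28, SE 0.23, adjusted p = 0.49), and Ly6a, the Sca-1 gene, was low throughout, with 49.1 and 81.3 against 130 and 116 (0.02, SE 0.58, adjusted p = 0.99). Cd34, a sialomucin of progenitors, had 849 and 483 against 3689 and 2191, both below WT (−1.18, SE 0.18, adjusted p = 0.0066), and was also called on the deposited scale (−2.15, SE 0.60, adjusted p = 0.047). Adgrl4, an adhesion receptor, fell from 17088 and 12846 in WT to 4703 and 1492 (−1.51, SE 0.24). Tal1, a master factor of blood stem cells (−0.90, SE 0.19), and Cd93, a surface lectin (−0.76, SE 0.19), were called lower as well, and lost the call with background taken off (adjusted p = 0.077 and 0.13). Flt3, the receptor that marks multipotent progenitors without stem cell capacity, had 2894 and 1226 against 6610 and 4975 and was not called (−0.63, SE 0.17, adjusted p = 0.062).

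Among 14 low-background genes of long-term stem cells 1 was called lower, Gata2, and 0 higher, beside 2.68% and 4.24% of all low-background genes. The median of the 14 was −0.24. Gata2, a zinc-finger factor needed by stem cells and mast cells, had 718 and 329 in Pu.1-KO against 2587 and 1959 in WT (−1.24, SE 0.17, adjusted p = 0.0038). Meis1, a homeobox cofactor, had 7976 and 2701 against 16776 and 14166 (−0.76, SE 0.25, adjusted p = 0.10), and Hlf, a leucine-zipper factor of stem cells, 7994 and 2302 against 15472 and 12264 (−0.71, SE 0.28, adjusted p = 0.16). Other falls, outside the lists, were those of Muc13, a mucin (889 and 455 against 4167 and 2615; −1.40, SE 0.17), Sox4, an HMG-box factor of progenitors (767 and 278 against 2517 and 2203; −1.38, SE 0.21), Nkx2-3, a homeobox factor (97.1 and 87.7 against 679 and 521; −1.71, SE 0.32), Igfbp4, which binds insulin-like growth factors (−1.50, SE 0.33), and Gpx1, a glutathione peroxidase (−1.38, SE 0.24). Nkx2-3 and Igfbp4 were not called with background taken off (both at an adjusted p of 0.076). In each of the 5 both Pu.1-KO libraries lay below both WT libraries on the deposited scale.

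The median of the megakaryocyte and erythroid genes was lower in Pu.1-KO, but most members were not called. Of 21 low-background members 4 were called lower and 0 higher, beside 2.68% and 4.24% of all low-background genes. The median of the 21 was −0.93, and with background taken off 1 was called lower, Aqp1. Of the members of highest mean, Nfe2 (0.12, SE 0.20, adjusted p = 0.74) and Car2 (−0.40, SE 0.22, adjusted p = 0.30) were not called by limma. Pf4, a platelet chemokine, had 116 and 116 in Pu.1-KO against 1662 and 824 in WT (−2.36, SE 0.35, adjusted p = 0.0055). Klf1, the erythroid Krüppel-like factor, had 161 and 39.7 against 588 and 435 (−1.68, SE 0.38, adjusted p = 0.033). Aqp1, a water channel of red cells, had 306 and 168 against 1167 and 943 (−1.23, SE 0.20), and Zfpm1, the Gata1 cofactor FOG-1, 2818 and 999.8 against 6988 and 5675 (−0.93, SE 0.21). Pf4, Klf1 and Zfpm1 missed the threshold with background taken off (adjusted p = 0.054, 0.10 and 0.073). Slc35d3, a sugar-nucleotide transporter needed for platelet dense granules and not on the list, had 29.2 and 37.8 against 468 and 265 (−2.40, SE 0.49, adjusted p = 0.025).

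Globin genes followed single libraries. Hbb-bs had 439 and 59.5 in Pu.1-KO against 453 and 1181 in WT, and Hba-a1 had 275 and 7.04 against 150 and 674, so that Pu.1-KO a was close to or above WT a. Hbb-bs, Hba-a1 and Hbb-bt were called lower on the deposited scale and not on the low-background scale (adjusted p = 0.31, 0.41 and 0.37).

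Of 7 low-background genes on the list of mast cell, basophil and eosinophil genes 2 were called lower, Prg2 and Gata2, and 0 higher. Over all low-background genes the shares were 2.68% and 4.24%. With background taken off 1 of the 7 was called lower, Gata2. Ear2 and Ear6, eosinophil-associated ribonucleases that are not on the list and are named for the size of their change, had 111 and 48.0 and 55.0 and 46.7 in Pu.1-KO against 756 and 610 and 529 and 489 in WT (low-background −2.23, SE 0.28, and −2.34, SE 0.36). These ribonucleases form a family of close copies, so their reads may have been shared among members. Alox15, a lipoxygenase of eosinophils and macrophages, had 106 and 76.2 against 751 and 458 (−1.72, SE 0.30). Prg2, the major basic protein, had 1235 and 620 against 3841 and 4757 (−1.31, SE 0.23, adjusted p = 0.014, and 0.087 with background taken off), and Epx, eosinophil peroxidase, 604 and 143 against 981 and 1819, called on the deposited scale alone (low-background −1.21, SE 0.45, adjusted p = 0.15). The summed count of the list was 4539 and 2753 in Pu.1-KO against 9744 and 10699 in WT.

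Some genes on the lists of other mature cells were higher on the low-background scale. Of 18 monocyte, macrophage and dendritic cell genes 3 were higher and 0 lower, beside 4.24% and 2.68% of all low-background genes. The 3 were Ly6c2, a monocyte surface protein (1.51, SE 0.19), Vcam1, an adhesion molecule (1.98, SE 0.19), and Cd5l, a macrophage protein (1.60, SE 0.37). The list had a median of 0.44 that was −0.11 on the deposited scale, and with background taken off Cd5l was lost. Of 7 B-lineage genes 2 were higher, the receptor chain Cd79a (1.70, SE 0.35) and the surrogate light chain Igll1 (1.89, SE 0.43), and 0 lower, with a median of 1.06. Both calls were lost with background taken off (adjusted p = 0.056 and 0.079). Rag1, Rag2 and Ms4a1 were listed at 0 in all 4 libraries. Why they were at exactly 0 in libraries with background reads was not tested, and these zeros were not read as absence. The only T and NK gene with low background, Nkg7, named above among the early granulocytic genes, was higher. WT GMPs held both Nkg7 (2009 and 2292) and Ly6c2 (4655 and 5619), so these genes do not mark mature cells alone. No gene of the stroma and endothelium list had low background. The summed count of the B-lineage list was 37093 and 16228 in Pu.1-KO against 25516 and 21782 in WT.

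**Figure D4:**
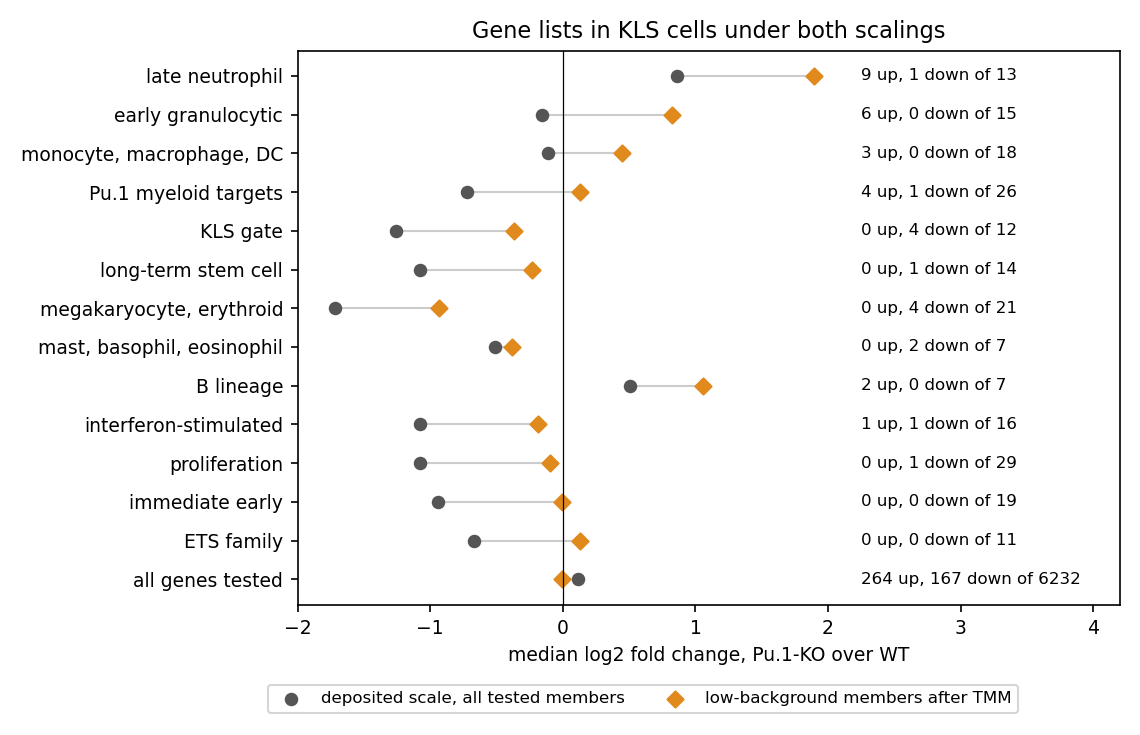
Median log2 fold change of each gene list on the deposited scale (grey circles, all tested members) and on the low-background scale (orange diamonds), with the counts called higher and lower on the low-background scale at the right. The late neutrophil list stands at 1.89 and the megakaryocyte and erythroid list at −0.93 on the low-background scale, and all genes together at −0.0035.

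Ribosomal protein genes were in part lower. This group was chosen after its values had been seen. Of 82 with low background 17 were called lower and 1 higher, beside 2.68% and 4.24% of all low-background genes. The median of the 82 was −0.59, and with background taken off 3 were lower and 0 higher. Rps15 had 1241 and 409 in Pu.1-KO against 4568 and 3126 in WT (−1.43, SE 0.22), and Rpl7a had 227 and 69.1 against 937 and 651 (−1.66, SE 0.30). Many processed copies of these genes exist, so reads of single members may have been split. Srm, spermidine synthase, had 270 and 111 against 1117 and 771 (−1.45, SE 0.23), and Npm1, the nucleolar chaperone nucleophosmin, 2758 and 1412 against 8135 and 5764 (−0.82, SE 0.16). Myc, a driver of ribosome production, had 1522 and 662 against 4668 and 2622 (−0.83, SE 0.19, adjusted p = 0.037). Npm1 and Myc missed the threshold with background taken off (adjusted p = 0.12 and 0.14).

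Cell cycle and signalling lists gave few calls, where 4.24% of all low-background genes were higher and 2.68% lower. Of 29 low-background proliferation genes 1 was lower, Cdt1, which licenses replication origins (−0.86, SE 0.18), with a median of −0.099, and Mki67 had 26445 and 6694 in Pu.1-KO against 30348 and 24084 in WT (−0.05, SE 0.36). Of 16 interferon-stimulated genes 1 was lower, Irf9, which carries the interferon signal to DNA (−0.98, SE 0.21), and 1 higher, Samd9l, an antiviral factor (0.79, SE 0.17, but −0.19 on the deposited scale). Oas1a, an oligoadenylate synthetase, was called lower on the deposited scale (52.6 and 60.2 against 400 and 256). Cdt1, Irf9 and Samd9l lost their calls with background taken off (adjusted p = 0.12, 0.076 and 0.052), and Ube2c, an enzyme of mitotic exit, gained one (0.95, adjusted p = 0.040). Of 19 immediate early genes and 11 ETS-family genes 0 were called by limma on this scale, at medians of −0.0097 and 0.13, and of 6 p53 targets 0. Etv6, an ETS repressor, had 31281 and 8347 against 44591 and 39226 (−0.40, SE 0.39). Of 18 partners and antagonists of Pu.1, 3 were higher (Cebpd, Cebpe and Gfi1) and 3 lower (Gata2, Klf1 and Tal1), and of 8 genes of cell cycle control that it is held to regulate 1 was higher (Gfi1) and 1 lower (Myc). Of these, Klf1, Tal1 and Myc lost the call with background taken off.

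On the low-background scale Spi1 itself stood at 3188 and 2769 in Pu.1-KO against 1850 and 1861 in WT, a log2 fold change of 0.68 (SE 0.16, adjusted p = 0.041), where the deposited scale gave −0.30. The groups did not overlap on this scale. Without WT a or WT b the call was lost (0.66 and 0.65, adjusted p = 0.49 and 0.42). Daxx was at 522 and 625 against 616 and 559 (−0.04, SE 0.21, adjusted p = 0.94).

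Y-linked genes were highest in a single library, and immunoglobulin segments differed between the groups or within them. Ddx3y, a Y-linked RNA helicase, had 1191 in Pu.1-KO a and 31.4 in Pu.1-KO b, against 8.13 and 8.44 in WT. Uty, Kdm5d and Eif2s3y were likewise highest in Pu.1-KO a (2153, 842 and 474), with 341, 120 and 108 in Pu.1-KO b and at most 89.4 in WT, and all 4 were called higher on the deposited scale. Xist was listed at 0 in each library, which was not read as absence. None of the 4 Y-linked genes had low background, and the sex of the mice is not on the labels. In GMPs of the same animal numbers Ddx3y had 556 in Pu.1-KO a and 11.1 in Pu.1-KO b, against 6.35 and 2.61 in WT. Sex may thus have differed within Pu.1-KO and between the groups. In that case sex and genotype cannot be fully told apart, and the part of sex in any difference was not tested. Of the V segments, Igkv12-89 had 446 and 328 in Pu.1-KO against 0 and 2.53 in WT, Ighv1-55 had 253 and 196 against 4.07 and 6.75, and Ighv14-3 had 374 and 23.0 against 0 in both WT libraries. Ighv5-9 went the other way, at 0 in both Pu.1-KO libraries and at 66.4 and 302 in WT. With background taken off Ighv14-3 and Ighv5-9 lost the call (adjusted p = 0.072 and 0.11). These segments resemble each other closely, and their counts can be split by the aligner.

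Repeats were counted in a table of raw reads per subfamily. Of 847 subfamilies tested with edgeR 2 (0.236%) were called, both lower, and 0 higher, and 163 had an unadjusted p under 0.05. L1Md_T, a young LINE-1 subfamily, took 46672 and 40656 CPM, scaled to the repeat reads in Pu.1-KO a and b and 145976 and 103659 in WT a and b (−1.85, SE 0.29, adjusted p = 0.036). ORR1D-int, an internal part of a MaLR element, took 425 and 500 against 900 and 697 (−1.13, SE 0.18, adjusted p = 0.036). Of 26 families 0 were called (6 at an unadjusted p under 0.05). The difference between the effects in KLS cells and GMPs was called for 0 families (1 at an unadjusted p under 0.05). Repeat reads per gene read were 0.368 and 0.746 in Pu.1-KO against 0.258 and 0.329 in WT, in the order of the Olfr density. With gene reads as library size 266 subfamilies and 5 families were called higher and 0 lower, and L1Md_T stood at −0.59 (adjusted p = 0.12).

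KLS cells of a separate line, in which both Daxx and Pu.1 had been deleted (DKO, 2 libraries) and compared with 3 WT libraries of their own at 3 w.p.i., gave values from other animals with less background. That comparison differs from the present one in the loss of Daxx. It also differs in mouse line, animals, control mice, background and normalization, and these cannot be told apart. In it 9.24% of 15200 genes tested were called higher and 8.4% lower. These shares are over all genes tested there. They were not taken over low-background genes alone. Of the 264 low-background genes higher in Pu.1-KO KLS cells 260 were tested there, and 202 were called higher and 0 lower, with a median log2 fold change of 1.52. Of the 167 lower genes 166 were tested there, and 43 were called lower and 1 higher, with a median of −0.39. Of the 110 genes called higher on the deposited scale only 49 were tested there, and 22 were called higher and 1 lower. Of the 80 called lower 79 were tested there, and 18 were called lower and 3 higher.

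Mybpc3 had 6428 and 3333 normalized counts in the DKO libraries and at most 49.0 in their WT libraries, while Thbs4 had 5922 and 3044 against 1.08, 0 and 3.00. Camp had 14066 and 17221 against 165, 53.8 and 2266, so that 1 WT library lay well above the other 2 and all 3 lay below DKO. Cd34 had 235 and 554 against 2541, 2091 and 2187. Spi1 had 3330 and 2993 against 1676, 1669 and 2320 (0.76, SE 0.17, adjusted p = 0.016). Daxx had 93.9 and 78.1 against 423, 467 and 505. Mybpc3, Thbs4, Camp and Cd34 moved in DKO in the direction that both scales gave in Pu.1-KO, and Spi1 in that of the low-background scale alone. Where a list's median differed in sign between the scales, DKO went either way. The early granulocytic list was at 2.44 in DKO (10 higher and 0 lower of 15), the low-background sign. Myeloid targets of Pu.1 were at −0.96 (6 higher and 9 lower of 38), the deposited sign. So were monocyte, macrophage and dendritic cell genes, at −0.98 (2 higher and 1 lower of 22). Rps15 (−0.20, adjusted p = 0.52) and Srm (−0.21, adjusted p = 0.62) were not called in DKO, and of 89 ribosomal protein genes 2 were higher and 2 lower. Plaur, the urokinase receptor, was higher in Pu.1-KO (2326 and 1685 against 862 and 611; 2.42, SE 0.20) and at −0.25 in DKO (adjusted p = 0.53). The difference between the lines was not tested.

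**Figure D5:**
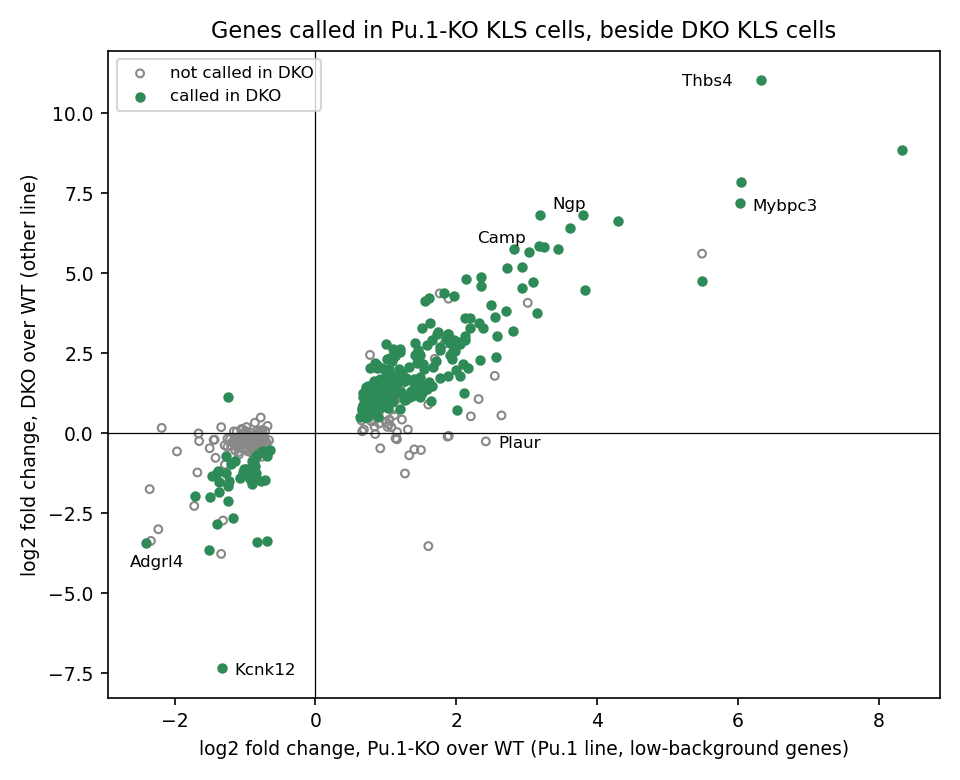
Log2 fold change of the low-background genes called in Pu.1-KO KLS cells (horizontal) against that of the same genes in DKO KLS cells of the other line (vertical), with filled green points for genes called in DKO. Of the points on the right, 202 of 260 are called higher in DKO, and Plaur is among those that are not.

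GMPs, the committed progenitors of granulocytes and monocytes, were sorted from mice with the same animal numbers, so their values are set beside those of KLS cells and are no independent repeat. In GMPs 1770 of 19337 genes were higher in Pu.1-KO (9.15%) and 1642 lower (8.49%). Of the 264 low-background genes higher in KLS cells 259 were tested in GMPs. Of these 103 were called higher and 3 lower, at a median of 0.45. Of the 167 lower genes 165 were tested in GMPs, and 130 were called lower and 1 higher, at a median of −0.88. Mybpc3 had 2317 and 2945 normalized counts against 72.0 and 41.8, Thbs4 had 3389 and 3884 against 30.7 and 27.4, and Camp had 21501 and 19881 against 3929 and 3050. Spi1 had 2589 and 2707 against 3395 and 3934 (−0.46, SE 0.24, adjusted p = 0.15). Of the late neutrophil list 13 of 15 were higher there, at a median of 2.19, and of the early granulocytic list 1 was higher and 5 lower of 15, at a median of −0.66. Of the B-lineage list 14 of 19 were higher in GMPs. Of 31 megakaryocyte and erythroid genes 6 were higher there and 10 lower, at a median of −0.21. Hba-a1 and Hbb-bs were among the higher ones (1.67 and 1.42). Of 91 ribosomal protein genes 39 were lower in GMPs and 1 higher, at a median of −0.71. Prg2 was higher in GMPs (1.11, adjusted p = 2.264e-04) and lower in KLS cells (−1.31 on the low-background scale). The difference between cell types was not tested for genes, since the tables were normalized separately.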

How the data were processed

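KLS cells were sorted from bone marrow and their RNA was sequenced. The labels name the NuGEN Ovation SoLo kit and the methods of the study name a different one for steady-state samples, which leaves it unsettled. Per the submitters' processing notes CASAVA 1.8.4, cutadapt 1.13, STAR 2.5.3 and DESeq2 1.16.1 were used on mm10. The gene table deposited by the authors holds signal, counts divided by 1 size factor per library, and 100% of its values came out as whole reads (tolerance 0.01). The repeat table deposited by the authors holds raw counts per subfamily. The members and gene lists were chosen with earlier results of these data known.

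Genes with a mean of 10 or more were tested on log2(value + 1) with limma 3.58.1 (trend, R 4.3.3), adjusted by Benjamini-Hochberg and called at 0.05. Fold changes are on that scale and understate the change of low genes. Repeats were tested with the edgeR 4.0.16 quasi-likelihood test over 8 libraries. Expected background is the Olfr value per base of gene span in a library times a gene's span, with spans from GENCODE vM21 for the 51445 genes with a single entry. Alternatives included DESeq2 1.42.0, other filters and scalings, and leaving out each library. Scripts were tested on simulated data.

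Named genes are Spi1 and Daxx, the largest changes each way among called genes, and members of the lists. The largest changes, 8 on the deposited scale and 20 on the low-background scale, had no overlap and a mean of 50 or more. Predicted or unnamed models were left out of them, apart from the 2 largest each way on the deposited scale. Of the lists, called members and the 4 of highest mean in each were named. Any other gene named, such as Npm1, Plaur, Psmc3 and Madd, was chosen after its values were seen. Tables were normalized separately and each was tested alone. The other 14 tables were not used here, and 0 columns of values in the 4 tables used were left out. Depth is given with the results, and with 2 libraries a group the number of libraries limits the precision.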

Additional observations from a re-analysis of the deposited data

How the results depend on the processing

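For the difference between KLS cells and GMPs in repeat families, the animal number as a block gave 0 higher and 0 lower, as without it. For Pu.1-KO against WT, no paired analysis was possible because they came from different animals and the columns carry no replicate numbers of the labels. On the deposited scale 110 genes were called higher and 80 lower. With pseudocount 10, 55 were higher. With a mean of 100 or more the counts were 324 and 237, with a mean above the 99th percentile of Olfr genes (59.2) 354 and 223, with TMM on all values 446 and 159, with median-of-ratios over genes of a mean of 1000 or more 4 and 0, with edgeR 1493 and 194, and with DESeq2 576 and 270, so that 57.9% of calls were higher in the limma fit and 88.5% with edgeR. Low-background genes after TMM gave 264 and 167. Leaving out single libraries gave 9 to 3312 higher and 5 to 4650 lower. Among low-background genes the counts were 44 lower with background taken off, 90 lower with background under 10% in each group, 9 and 26 on the deposited scale, and 19 to 599 higher and 0 to 733 lower without single libraries. Spi1 turned from −0.30 to 0.68, with a range of 0.58 to 0.78 without single libraries, and Daxx ran from −1.36 to −0.66 on the deposited scale, passing the threshold without Pu.1-KO a (adjusted p = 0.027). Repeat subfamilies (0 higher, 2 lower) gave 266 and 0 with gene reads as library size, 3 and 10 with DESeq2, 0 lower in the 4 KLS libraries alone, and 0 to 93 and 0 to 111 without single libraries. Families (0 and 0) gave 5 higher with gene reads, 1 lower with DESeq2, and 0 to 8 and 0 to 7 without single libraries. GMP genes gave 1086 and 765 with low background, and 136 to 2812 and 15 to 5343 without single libraries, and DKO genes 223 to 1659 and 345 to 1312. Of 800 alternative values of 59 named genes 536 stayed on their side of the threshold, 215 lost the call, 49 gained it and 0 called values reversed. The cause of these moves was not tested. The edgeR fit of DKO was not run, since reads could not be recovered for each of its libraries. Leaving out a library assumes that the lone one varies like the other group.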
